A study of Homo sapiens with 8 samples.

Results

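The genes described here are 239 human box C/D snoRNA genes. They were chosen from the RefSeq gene table as genes of the snoRNA biotype whose symbol starts with SNORD, on chromosomes 1 to 22 and X. The tandem copies at the imprinted loci, whose symbols start with SNORD113, SNORD114, SNORD115 or SNORD116, were set aside. The 239 members stand among 59094 RefSeq genes on the same chromosomes. They were 48 to 237 bp long, with a median of 78 bp, and 217 of them lay inside a longer gene, their host. A member was counted as having a peak where at least 1 bp of a peak met the gene widened by 250 bp on each side. Several members lay so close together that the widened genes merged into 208 separate loci, so neighbours often shared a peak.

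The study used KAS-seq, in which N3-kethoxal marks guanines of single-stranded DNA in living cells, so that the enriched fragments map opened DNA such as transcription bubbles. HEK293T, the line used, is an established line from human embryonic kidney. Control cells received no vitamin C, treated cells received 0.5 mM vitamin C for 10 min, and the label, 5 mM N3-kethoxal, was then applied to both for 10 min. There were 8 samples, and the peak lists of 2 control and 2 vitamin C labelled libraries entered the comparisons, with no use of the 4 inputs. The labels vary the number in the name of the line from sample to sample, whereas all titles read HEK293T, which was taken as correct. Whether replicates came from separate cultures is not stated, so each p-value below reflects a spread between libraries that may be technical.

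Box C/D snoRNAs are short nucleolar RNAs that carry the C and D sequence boxes and assemble with fibrillarin, NOP56, NOP58 and SNU13. Most of them base-pair with ribosomal RNA and direct the methylation of a ribose there, and a few are needed for cutting the ribosomal RNA precursor. In human cells most are cut out of the introns of RNA polymerase II transcripts, many of them from genes of ribosomal proteins or from non-coding genes whose spliced RNA is short-lived, while U3, U8 and U13 are made from promoters of their own.

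The 4 lists differed in length. On these chromosomes the controls held 30351 and 24111 peaks, and the vitamin C libraries held 9816 and 9896. Read numbers are not in the lists, so the depth behind a missing peak is unknown. The cell identity markers gave little to read: of 8 genes listed for HEK293T, 4 had an annotated start in the promoter table, where EEF1A1 had a peak within 1 kb in all 4 libraries and VIM, KRT8 and PAX2 had none. Of 8 genes listed for other cell types, the 3 in that table had none.

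Close to the same number of box C/D snoRNA genes had a peak in each control, and both vitamin C libraries had fewer. In the controls 114 and 112 of the 239 members had a peak, which is 47.7% and 46.9%, with exact 95% binomial intervals of 41.2% to 54.2% and 40.4% to 53.4%. In the vitamin C libraries 79 and 77 had one, which is 33.1% (27.1% to 39.4%) and 32.2% (26.3% to 38.5%). These intervals cover counting error only. Both vitamin C libraries lay below both controls. The control mean was 47.3% ± 0.592 (SD, n = 2) and the vitamin C mean 32.6% ± 0.592 (SD, n = 2), a difference of -14.6 percentage points. The exact two-sided permutation test over libraries gave p = 0.33, the smallest that 2 libraries against 2 can give. When each list was cut to its 9816 strongest peaks, so that all were equally long, the difference was -7.11 points.

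In ratio, the share after vitamin C was 0.69 of the control share at box C/D snoRNA genes. It was 0.537 over all RefSeq genes, which went from 17.2% to 9.23%, and 0.535 over protein-coding genes. Over the 7247 RefSeq genes no longer than the longest member, which include the members and the tRNA genes, the ratio was 0.759. The box H/ACA and scaRNA genes, the other large class of small nucleolar and Cajal body RNAs, gave 0.648, and the tRNA genes, short genes read by RNA polymerase III, gave 0.945. By this ratio the members stood between coding genes and tRNA genes.

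**Figure D1:**
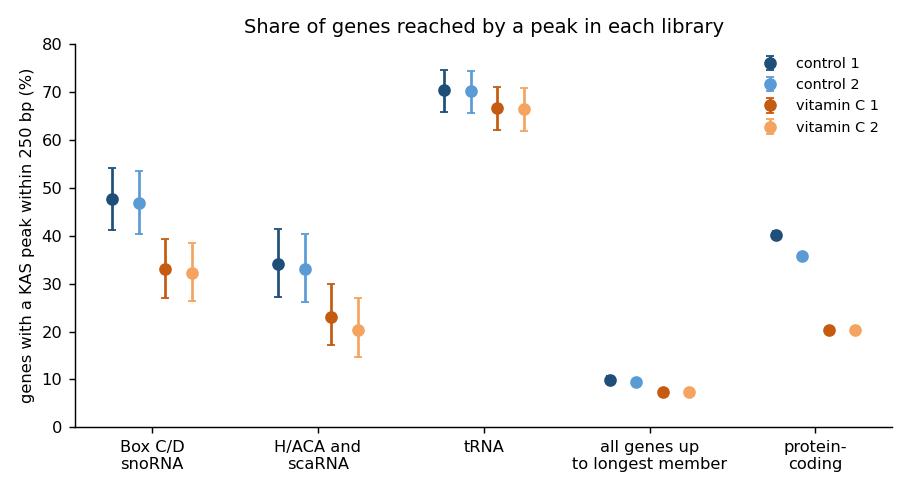
Share of genes with a peak in each of the 4 libraries (percent, vertical axis), for the box C/D snoRNA genes and for other gene sets (horizontal axis). Each point is 1 library and each line is the exact 95% binomial interval of that library. The mean of 2 libraries is 47.3% in the controls and 32.6% after vitamin C for the members, and 70.3% and 66.5% for tRNA genes.

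By gene, 104 members had a peak in both controls, a share of 43.5%, against 14.3% of all RefSeq genes and 8.69% of the genes up to 237 bp. Of these 104, 64 had a peak in all 4 libraries and are called kept, 61.5%, against 48.6% of all genes and 77.5% of the short genes. Among box H/ACA and scaRNA genes the share kept was 54.5%, and among tRNA genes 95.4%. The short genes include the members and the tRNA genes. Of 630 short genes with a peak in both controls, 305 were tRNA genes, of which 291 were kept. A further 22 of the 104 members had a peak in 1 vitamin C library, 21.2% against 23.4% of all genes. In this group 13 had it in vitamin C library 1 and 9 in library 2. The remaining 18 had no peak in either vitamin C library and are called lost, 17.3%, against 28.0% of all genes and 12.1% of the short genes. Leaving out a library loosens this rule, and the count then ran from 25 to 31, the highest without vitamin C library 1. With lists of equal length it was 8. Of all 239, 0 were gained, meaning absent from both control lists and present in both treated ones, against 0.0102% of all genes. That count of 0 allows a share of up to 1.26%.

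The other members were 115 with no peak in any library and 20 with a mixed pattern. The share without a peak was 48.1%, against 79.7% of all genes. Of the 20, 8 had a peak in control 1 alone and 7 in control 2 alone. SNORD153 and SNORD87 had one in vitamin C library 2 alone, with the authors' fold enrichment of 4.28 and 4.61. SNORD3K, a U3-related copy, had one in control 2 and vitamin C library 1, SNORD13H in control 1 and vitamin C library 2, and SNORD11 in every library but control 2. The vitamin C calls lay almost wholly within the control calls: of 65 members present in both treated lists, 64 were present in both controls, 98.5%, against 98.3% over all genes.

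The peaks at box C/D snoRNA genes were not centred on them. The summit, the highest point of a peak, lay inside the snoRNA gene at 3 of 114 members in control 1, 3 of 112 in control 2, 4 of 79 in vitamin C library 1 and 3 of 77 in library 2. From the middle of a member to the nearest summit the median distance was 769 and 570 bp in the controls and 308 and 315 bp after vitamin C. Group means were 669 ± 141 bp and 311 ± 5.3 bp (SD, n = 2), a difference of -358 bp (exact permutation p = 0.33). Summits stood closer in both vitamin C libraries.

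Coverage by peaks was no higher over the snoRNA than beside it. In control 1, 33.6% of the bases of the members lay in a peak, against 37% of the bases 100 to 350 bp to either side. In control 2 the values were 30.5% and 35.1%. After vitamin C they were 16.7% and 19.6% in library 1, and 17.9% and 19.8% in library 2. All 4 libraries had slightly less coverage on the gene than in its flanks, and the difference, gene minus flank, ran from -4.58 to -1.86 percentage points. At tRNA genes it was positive in every library, from 8.37 to 14.2 points. In 10.9%, 9.32%, 10.5% and 9.18% of tRNA genes with a peak, in the same order of libraries, a summit lay inside the gene. At box H/ACA and scaRNA genes it ran from -4.29 to -0.975 points. These flank values were chosen after the data had been seen and carry no test.

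**Figure D2:**
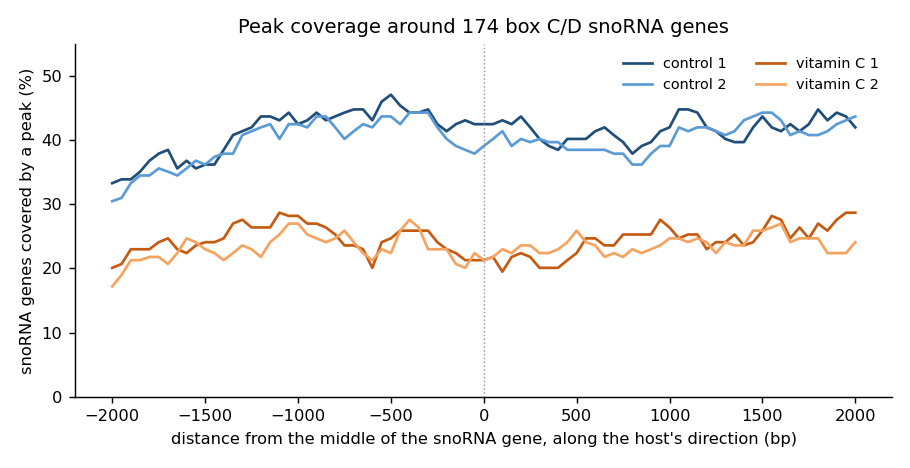
Percent of 174 box C/D snoRNA genes with a peak at each position (vertical axis) against the distance from the middle of the gene in bp along the direction of the host (horizontal axis, minus is toward the host start), 1 line per library. No line rises at the snoRNA itself: control 1 runs between 33.3% and 47.1% and is at 42.5% at the middle, and vitamin C library 1 is at 21.3% there.

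The peaks that reached members were long. Their median width was 1294 and 1204 bp in the controls, against 361 and 379 bp over the whole lists. It was 769 and 644 bp in the vitamin C libraries, against 357 and 351 bp over those lists. The group means were 1249 ± 64 bp and 707 ± 88 bp (SD, n = 2), a difference of -542 bp (exact permutation p = 0.33). Both vitamin C values lay below both control values, whereas the whole lists hardly differed in median width. With lists of equal length the difference was -1063 bp. Peaks of 2 kb or more made up 28.7% and 31.7% of the peaks at members in the controls and 11.9% and 10.7% after vitamin C. Over the whole lists the share was 2.03%, 2.13%, 1.68% and 1.26%. The longest peaks at members spanned 9176, 10610, 6583 and 4827 bp, and a single peak reached up to 8, 10, 5 and 8 members. Peaks carry no strand, so signal at a shared peak cannot be given to 1 snoRNA or told apart from its host.

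A smaller share of the members with a peak was covered whole in both vitamin C libraries. Of these members, 84 of 114 and 78 of 112 were covered over their whole length in the controls, and 41 of 79 and 45 of 77 after vitamin C. The widening of 250 bp decided 22, 30, 28 and 23 members, whose peak met the flank and no base of the gene. Another 14, 12, 17 and 19 members had their nearest peak more than 250 and up to 500 bp away, just beyond the rule. Counting only summits within the widened gene turned the direction of the comparison: 14.2% of members met this in the controls and 15.7% after vitamin C.

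Most members with a peak lay in hosts whose start had one too. The same peak can come within 1 kb of the start and also reach the member, so the 2 calls are not independent. In GAS5, for instance, the control 2 peak from 747 to 9638 bp past the start did both. Of 174 members whose host has an annotated start and strand, 112 had a host with a peak within 1 kb of its start in both controls, and 84 of these members had a peak themselves in both controls. Among 46 members whose host start had a peak in neither control, 1 did, and 43 had none in any library. Of 27195 starts in the promoter table, 11.5% had a peak in both controls and 81.1% had none in any library. Members with a peak lay in short hosts: 37 of 49 members in hosts up to 5 kb long had a peak in both controls, 51 of 73 in hosts of 5 to 20 kb, 12 of 53 in hosts of 20 to 100 kb, and 2 of 42 in longer hosts. They also lay near the host start. Within 1 kb of it, both controls had a peak at 14 of 16, of which 12 were kept. From 1 to 3 kb, 34 of 46 had one and 19 were kept, and from 3 to 10 kb, 34 of 52 and 21. Beyond 10 kb, 5 of 60 had one and 0 were kept. These distance classes were set after the values had been seen.

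By kind of host, the non-coding genes and the ribosomal protein genes carried most of the peaks. In 19 non-coding hosts, 34 of 45 members had a peak in both controls, 27 were kept, 4 were in 1 vitamin C library and 3 were lost. In 17 ribosomal protein hosts, 33 of 41 had a peak in both controls, but 18 were kept, 7 were in 1 vitamin C library and 8 were lost. Thus 27 of 34 and 18 of 33 of the members with control peaks were kept, a difference that was not tested. GAS5 and SNHG1, whose members share peaks, supplied 17 of these 27, and the other 17 non-coding hosts kept 10 of 16. In 93 other coding hosts, 32 of 125 had a peak in both controls, 15 were kept, 7 were lost and 82 had no peak in any library. Of 6 members in translation factor genes, 3 had a peak in both controls and 2 were kept. Of 22 members with no host, SNORD13 and SNORD88C were kept and 19 had no peak.

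**Figure D3:**
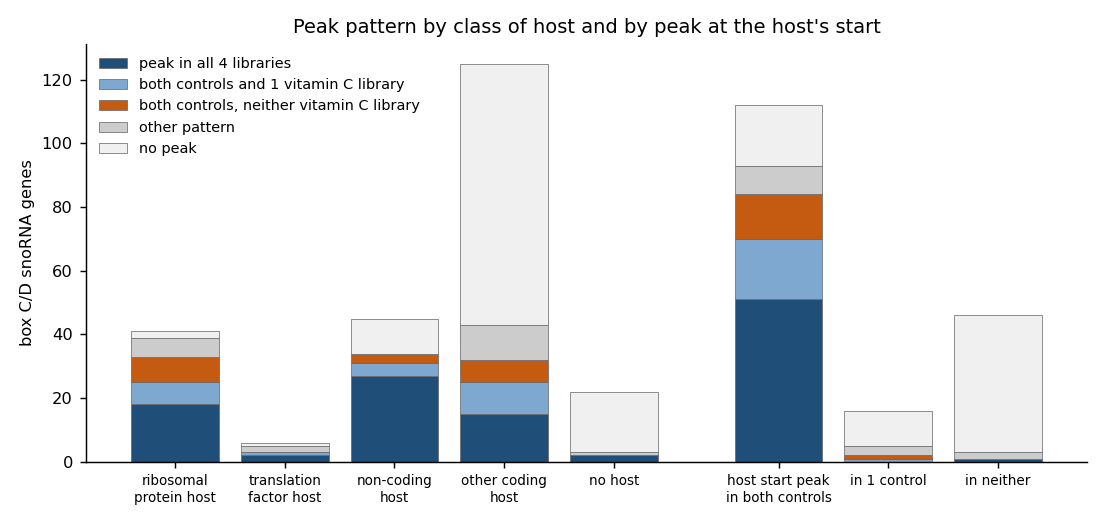
Number of box C/D snoRNA genes (vertical axis) by kind of host gene and by peak at the host start in the controls (horizontal axis), split by outcome over the 4 libraries. Non-coding hosts hold 27 kept and 3 lost members, ribosomal protein hosts 18 kept and 8 lost, and other coding hosts 82 members without any peak.

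Many snoRNA hosts are transcripts of the 5′ terminal oligopyrimidine class, whose RNA begins with a C followed by a run of pyrimidines. The starts of some hosts are printed here to show that run beside the outcome of the host. Sequences are from RefSeq, GRCh38.p14, on the strand of the host, 60 bases before the annotated start and 20 from it, with the run of at least 5 C or T bases that begins with a C within 10 bases of the start in capitals. RPS12 (chr6:132814509-132814588, plus strand), RPL13A (chr19:49487548-49487627, plus strand), ZFAS1 (chr20:49278582-49278661, plus strand) and SNHG5 (chr6:85678714-85678793, minus strand) had a start peak in all 4 libraries. So did GAS5 (chr1:173869026-173869105, minus strand) and SNHG1 (chr11:62855866-62855945, minus strand), in which the search found no run at the annotated start. In GAS5 the start peaks began 740 and 747 bp past the start in the controls and 767 and 747 bp after vitamin C. They met the 1 kb window and did not cover the printed sequence. RACK1 (chr5:181243887-181243966, minus strand), the host of SNORD95 and SNORD96A, has the longest run shown and had no peak in any library.
RPS12: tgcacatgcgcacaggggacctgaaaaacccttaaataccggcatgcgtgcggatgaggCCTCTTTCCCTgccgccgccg
RPL13A: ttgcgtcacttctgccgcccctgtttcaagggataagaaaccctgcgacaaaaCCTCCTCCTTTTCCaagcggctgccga
ZFAS1: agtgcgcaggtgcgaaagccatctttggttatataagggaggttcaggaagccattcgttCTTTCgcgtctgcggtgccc
SNHG5: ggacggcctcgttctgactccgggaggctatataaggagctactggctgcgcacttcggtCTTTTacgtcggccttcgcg
GAS5: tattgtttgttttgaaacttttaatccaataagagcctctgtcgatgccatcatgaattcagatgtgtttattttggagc
SNHG1: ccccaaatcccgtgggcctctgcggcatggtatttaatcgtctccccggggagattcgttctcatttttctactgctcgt
RACK1: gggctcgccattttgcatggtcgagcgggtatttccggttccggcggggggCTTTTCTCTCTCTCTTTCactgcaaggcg

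Of the 135 distinct hosts, 106 matched the promoter table, and such a run was present in 54 of them, 50.9%, against 33.3% of all 27195 starts. It was present in 26 of 39 hosts with a member peak in both controls (66.7%) and in 26 of 62 hosts with no member peak in any library (41.9%). In 3119 genes of the table with a start peak in both controls the share was 35.3%. By kind, 9 of 11 ribosomal protein hosts, 11 of 15 non-coding hosts and 31 of 74 other coding hosts had it. The search was on the host strand only, and a match is a description of letters, not of a site.

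GAS5, a non-coding gene whose exons code for no conserved protein and whose introns hold 10 members, kept all of them. It lies on chromosome 1 at 173863901 to 173869045 on the minus strand. In order from the start it holds SNORD74, SNORD75, SNORD76, SNORD77, SNORD44, SNORD78, SNORD79, SNORD80, SNORD47 and SNORD81. The authors' fold at SNORD74 was 32.1 and 21.2 in the controls and 29.9 and 30.5 after vitamin C. At SNORD81, the last in the gene, it was 34.1, 21.2, 24.8 and 25.1, but in the vitamin C libraries that peak met only the widening and covered 0% of SNORD81. It ran from 4968 to 9556 bp and from 5088 to 9505 bp past the host start, almost wholly beyond the end of GAS5 at 5144 bp. Peaks also met only the widening at SNORD47 in both vitamin C libraries, and at SNORD44 and SNORD77 in vitamin C library 1. Folds are each peak's own value within its list, so they rank peaks there and set no level between libraries. In GAS5 peaks covered 89.2% and 100% of the snoRNA bases in the controls and 57.9% and 78.5% after vitamin C, against 72.7%, 83.1%, 53.7% and 65.1% of the rest of the gene. In each library coverage was higher on the snoRNAs than on the rest of GAS5. Over all 135 hosts this was so in 27, 28, 19 and 20. Coverage was lower on the snoRNAs in 68, 69, 62 and 58, which include hosts with peaks but none at a member. In hosts with a member peak, median snoRNA coverage was 100% and 64.7% in the controls, against 67.8% and 54% of the rest. After vitamin C it was 41% and 33.7%, against 43.2% and 36.1%. In the 19 non-coding hosts, which include GAS5, coverage was higher on the snoRNAs in 5, 6, 7 and 7. It was lower in 4, 6, 5 and 4.

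SNHG1, on chromosome 11 at 62851978 to 62855885 on the minus strand, holds SNORD25, SNORD26, SNORD27, SNORD28, SNORD29, SNORD30, SNORD31 and, farthest from the start, SNORD22. All but SNORD22 were kept. The fold at SNORD25 was 47.9 and 37.1 in the controls and 30.8 and 29.9 after vitamin C. At SNORD30 and SNORD31 vitamin C library 1 gave only a separate weak peak, of fold 4.49. At SNORD22 that library gave none, its nearest peak lying 263 bp away, just outside the widening. The other 3 libraries had a peak at all 8. ZFAS1, a non-coding gene, kept SNORD12C, SNORD12B and SNORD12, with folds at SNORD12C of 25, 42.2, 18.4 and 28.8. SNHG5 did not hold its members in the same way: SNORD50B had folds of 58.9 and 59.5 in the controls and 16 in vitamin C library 1 and no peak in library 2, and SNORD50A, further from the start, was lost.

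**Figure D4:**
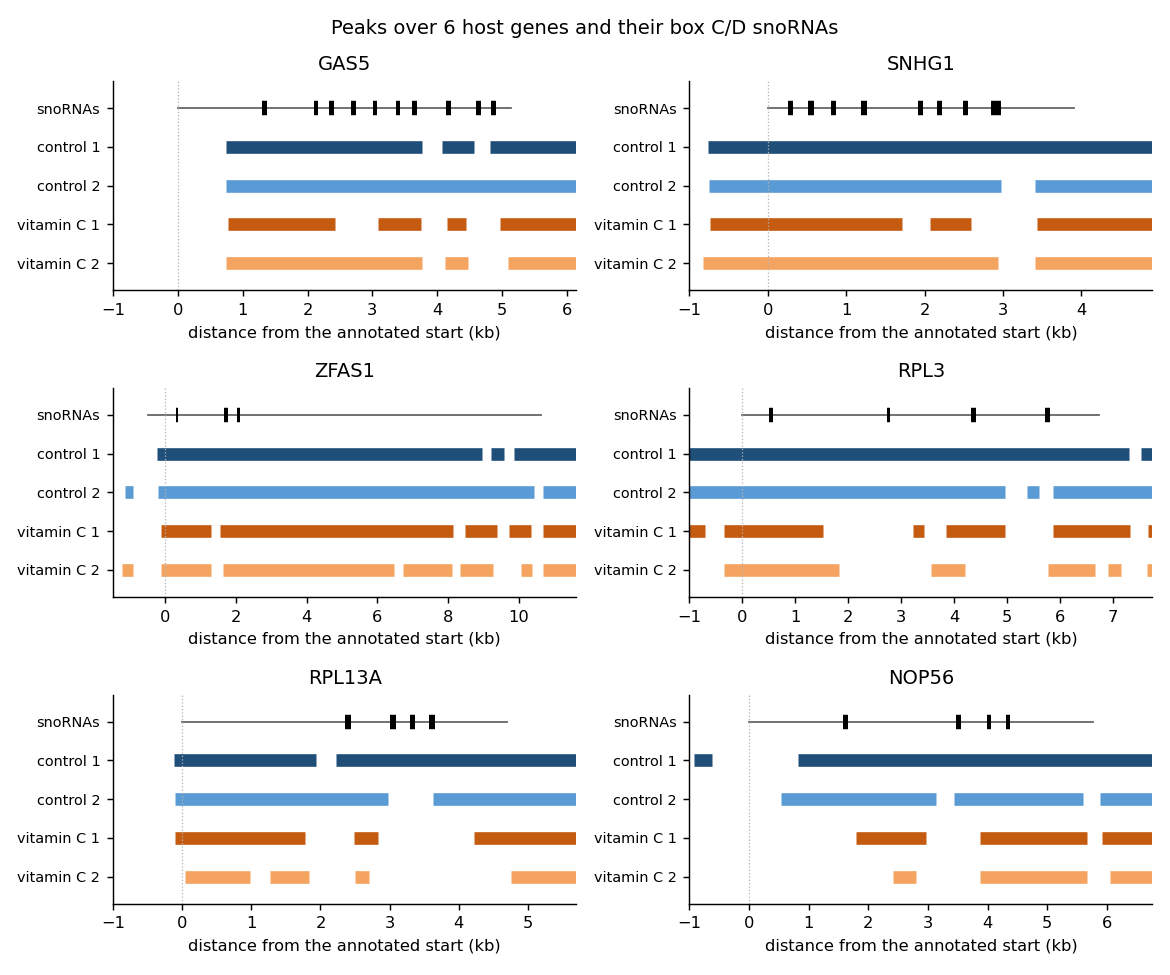
Maps of host genes with their snoRNA genes and the peaks of each library, by position from the host start in kb (horizontal axis), 1 row per library. Peaks in GAS5 and SNHG1 run through most of the snoRNA genes in all 4 libraries. The vitamin C peaks cover 0% of the RPL13A members and leave some of the NOP56 members uncovered.

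Several ribosomal protein hosts with 4 members kept some and not others. In RPL23A, SNORD42A and SNORD4B were among the strongest members, with folds of 44.6, 39.6, 39.6 and 35.7 in control 1, control 2 and vitamin C libraries 1 and 2. In each library the summit nearest to both lay beyond the end of RPL23A. SNORD42B was kept too, with 44.6, 23.4, 6.63 and 10.5, and SNORD4A had a peak in control 1 alone. The value of 44.6 at SNORD42B belongs to the same control 1 peak. In RPL3, SNORD43, SNORD83A and SNORD83B were kept and SNORD139 was lost. At SNORD83B the folds were 25.4, 48.1, 20.7 and 18.4.

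In RPL13A, only SNORD32A, the member nearest the start, was kept, with folds of 37.4, 11, 9.66 and 6.41. Its control 1 summit lay beyond the end of RPL13A. In both vitamin C libraries its peak met only the widening and covered 0% of SNORD32A. SNORD33 was missing from vitamin C library 2, SNORD34 was in control 1 alone and SNORD35A, farthest from the start, was lost. In RPL4, SNORD18A and SNORD16 were kept, with folds of 10.6, 7.91, 8.41 and 10.1 at SNORD16. SNORD18B was in control 2 alone, and SNORD18C was lost. In RPL7A none was kept: SNORD24 was missing from vitamin C library 2, SNORD36A and SNORD36B were in control 1 alone, and SNORD36C had no peak.

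Other hosts with 4 or more members encode nucleolar proteins. NOP56, itself a core protein of these particles, had a very strong peak in control 1, of fold 57.4, that reached all of its members. That peak ran from 821 to 8559 bp past the host start, and its summit lay beyond the end of NOP56 at 5761 bp. SNORD56 and SNORD57 were kept, with folds of 57.4, 12.1, 18.4 and 21.3 at both. SNORD110 was missing from vitamin C library 2, and SNORD86 was lost. In GNL3, a nucleolar GTPase gene, SNORD19B and SNORD69 were kept, SNORD136 and SNORD19 had a peak in vitamin C library 2 alone of the treated libraries, and SNORD19C had none. In NOP58, SNORD70B was lost, SNORD11B was in control 1 alone and SNORD70 had no peak.

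Over all hosts, 22 held 2 or more members with a peak in both controls. In 5 of them all such members were kept, and 8 hosts held both kept and lost members. The strongest peak of a host reached a member in 15 of 40 hosts in control 1, 15 of 48 in control 2, 16 of 36 in vitamin C library 1 and 14 of 34 in library 2, counting hosts with at least 2 peaks and 1 of them at a member. Among non-coding hosts alone it was 4 of 6, 2 of 6, 6 of 7 and 5 of 6.

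Members with promoters of their own gave a mixed picture. SNORD118, the U8 RNA that acts in maturation of the large ribosomal subunit RNAs, lies on chromosome 17 at 8173452 to 8173588, within the annotated span of TMEM107. It was kept, with folds of 29.8 and 23.8 in the controls and 15.8 and 16.7 after vitamin C. SNORD13, the U13 RNA, lies on chromosome 8 at 33513475 to 33513578 with no host and was kept as well, with 21.5, 16.3, 8.59 and 16.6. Its summits lay at nearly the same place in all 4 libraries, 215.5, 212.5, 218.5 and 219.5 bp from the middle of the gene. For SNORD118 they lay 244, 225, 243 and 378 bp away. The 5 genes of U3, the RNA needed for the early cuts of the ribosomal RNA precursor, are SNORD3A, SNORD3B-1, SNORD3B-2, SNORD3C and SNORD3D on chromosome 17. They had no peak in any library, and the nearest peak was 74294 bp or more away. These genes are near-identical copies, and how reads that fit several copies were handled is not given in the sources used here. Of 18 other genes named as SNORD3 or SNORD13 copies, 16 had no peak either.

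The other members with a role in cutting the precursor are U14, encoded by SNORD14A to SNORD14E, and U22, encoded by SNORD22. SNORD14C and SNORD14D, in the chaperone gene HSPA8, were kept, with folds at SNORD14C of 22, 19, 7.67 and 5.51. SNORD14E, in the same gene, was missing from vitamin C library 2. SNORD14A was missing from vitamin C library 1, and SNORD14B, in RPS13, was in control 1 alone. Of the 13 members of the processing list, which includes U3, U8 and U13, 7 had a peak in both controls, 4 were kept, 3 were in 1 vitamin C library and 0 were lost.

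Of 6 members that guide methylation of the spliceosomal U6 RNA, SNORD10 alone had peaks. It lies in EIF4A1, a translation initiation factor gene, and was kept with folds of 36.2, 25.1, 11 and 6.95. SNORD7, SNORD8, SNORD9, SNORD67 and SNORD94 had none in any library, although a peak of some library lay 1324, 2685, 2059, 3875 and 3223 bp away. The 6 remaining members at imprinted loci, SNORD64, SNORD107, SNORD108, SNORD109A, SNORD109B and SNORD112, had no peak in any library, and none lay within 42815 bp of any of them.

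The members with a peak in both controls were ranked by strength. Strength here is the percentile of a member's strongest peak by fold within its own list, averaged over the controls. The summit of that peak can lie far from the member, even outside its host. The median strength was 95.5 for the 104 members, 74.5 for all genes, 98.2 for genes up to 237 bp, 86.5 for box H/ACA and scaRNA genes and 99.2 for tRNA genes with a peak in both controls. Genes up to 237 bp include the members and the tRNA genes. Kept members had a median of 98.2 (range 50.7 to 99.7), members in 1 vitamin C library 87.7 (23.7 to 100) and lost members 76.6 (18.9 to 99.4). The ranges overlapped widely. With neighbours merged into loci the median strength was 91.2, and with control 1 left out it was 91.7.

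**Figure D5:**
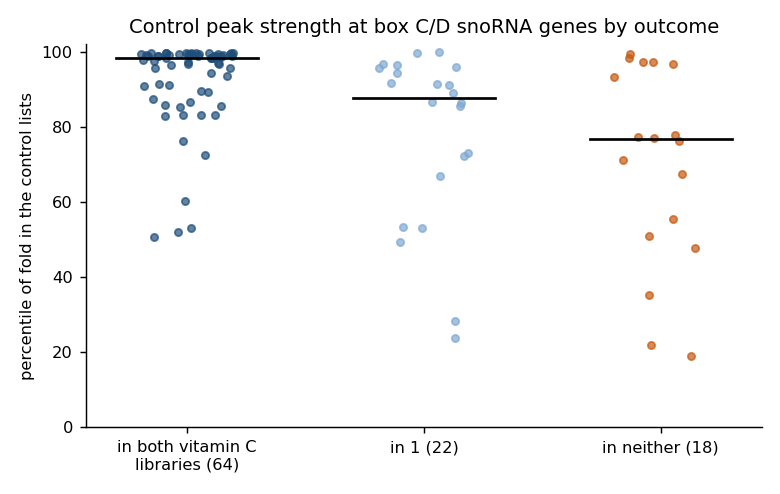
Control strength (mean percentile of the strongest peak's fold within its list, vertical axis) of box C/D snoRNA genes with a peak in both controls, by whether a peak was present in both, 1 or neither vitamin C library (horizontal axis). Each point is 1 gene and each line a median. Medians are 98.2, 87.7 and 76.6, and some lost members lie above 97.

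Shares kept were also taken within classes of control strength. Above the 97th percentile, 37 of 43 members were kept, 86%, against 97.7% of 969 RefSeq genes. Between 90 and 97 it was 50% of 20 members against 89%, between 75 and 90 it was 60% of 20 against 57.8%, and up to 75 it was 23.8% of 21 against 22.1%. Members share peaks and hosts, so these counts are not independent, and the differences were not tested.

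The 4 lost members above the 97th percentile were SNORD35A in RPL13A, SNORD139 in RPL3, SNORD58A in RPL17 and SNORD18C in RPL4, all in ribosomal protein genes. Their folds in the controls were 37.4 and 27.6, 25.4 and 18.5, 16 and 18.4, and 14.7 and 20.5. For SNORD35A the control summits lay 2306.5 and 2301.5 bp away, beyond the end of RPL13A at 4700 bp. At each of the 4 lost members the nearest treated peak lay 355 to 566 bp away, outside the widened gene, and overlapped the control peak that reached the snoRNA.

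The other lost members ran from strong to weak. SNORD86 had control folds of 57.4 and 12.1 and SNORD50A 58.9 and 9.51. The value of 57.4 belongs to the peak whose summit lay beyond the end of NOP56. SNORD73A and SNORD73B, both in RPS3A, had 9.91 and 7.03, and 8.6 and 7.57. SNORD52 had 7.71 and 8.11, SNORD1B 10.3 and 6.81, SNORD62B 9.91 and 6.21, SNORD72 15.4 and 5.41, and SNORD63B 6.53 and 6.33. SNORD15A in RPS3 had 29.7 in control 1 and 3.39 in control 2, and SNORD84 in DDX39B had 4.69 and 7.57. SNORD70B, SNORD5 and SNORD111 were weaker, with strengths up to 35.2. At 11 of the 18 lost members a treated library had a peak overlapping the control peak. At the other 7 (SNORD73A, SNORD52, SNORD1B, SNORD63B, SNORD84, SNORD70B and SNORD111) neither did. At SNORD84 the nearest vitamin C peak was 11218 bp away. The 18 lay in 17 hosts, and 11 lay in hosts whose start had a peak in all 4 libraries.

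At the kept members the nearest summits of the 2 controls lay a median of 68.5 bp apart, and those of the 2 vitamin C libraries 31.5 bp. The gap between the group means was larger than both within-group gaps at 17 of the 64. At 20 of the 64, all 4 summits lay within 100 bp, among them SNORD13, SNORD101, SNORD42A, SNORD25 and SNORD74. At 32 they spread over more than 1000 bp. Neighbours such as SNORD25 to SNORD28 and SNORD74 to SNORD77 share the same summits, so these counts of genes are not counts of separate sites. SNORD101 in RPS12, on chromosome 6 at 132815307 to 132815379, was among these 20, with folds of 28.4, 33.8, 35.8 and 44.8. SNORD100 in the same host was missing from vitamin C library 1.

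The 115 members without a peak mostly lay far from any opened stretch. The median distance to the nearest peak of any library was 18039 bp, from 253 to 3291548 bp, and 67 lay over 10 kb away. SNORD95 and SNORD96A, in RACK1, the gene of a protein of the small ribosomal subunit, were 73037 and 71541 bp from the nearest peak. Members with high symbol numbers, which were named later, were mostly in this group: of 54 with a number over 120, both controls had a peak at 4, while 0 were kept and 49 had none, against 100, 64 and 66 of 185 with numbers up to 120. That split was made after the values had been seen, and a slightly higher number, tried first, gave the same counts for both controls and for kept members.

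The genes of the proteins that build and process these particles were read at their annotated starts. Of 20 such genes, 12 had an annotated start in the promoter table, 4 had a peak within 1 kb of it in both controls, 1 was kept, 3 were lost and 7 had none in any library. Over the whole table, 11.5% of starts had a peak in both controls and 81.1% had none, and 42.9% of the 3119 starts found in both controls were kept, and 33.1% were lost. ZNHIT6, an assembly factor, was kept. FBL, the methyltransferase fibrillarin, was lost with control folds of 6.61 and 6.49, as were NOP56, a core scaffold protein, with 57.4 and 10.1, and RUVBL2, an assembly ATPase. These NOP56 control peaks began 821 and 529 bp past the start, and the first had its summit beyond the end of the gene. Vitamin C peaks inside NOP56 began 1790 and 2409 bp past the start, outside the 1 kb window.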

How the data were processed

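Peak lists of 4 KAS-seq libraries were analysed. The submitters' processing notes name MACS2 2.2.7.1, Bowtie2 2.4.5, deepTools, cutadapt, Trim Galore and bcl2fastq 2.19, and the build hg38. The sources used here give neither settings nor read depth. The deposited lists, called per library, give each peak's position, summit, fold enrichment (a linear ratio) and −log10 p and −log10 q, with a highest q of 0.00999. The authors' fold was used only to describe, rank or filter peaks within a list. Peaks outside chromosomes 1 to 22 and X were left out (4.23% to 5.06%). Genes came from RefSeq, GRCh38.p14. That table has no strand, which was taken from the promoter table for 106 of 135 hosts.

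The host of a member was the shortest coding gene containing it, else the shortest non-coding one, and 20 members lay inside more than 1 gene. Named genes were fixed role lists, the 10 strongest kept members, up to 15 lost members, members of hosts with 4 or more and the particle proteins. The members of 1 such host are not reported here. Others (SNORD101, SNORD100, SNORD12, SNORD12B, SNORD12C, SNORD88C, SNORD50B, SNORD153, SNORD87, SNORD3K, SNORD13H, SNORD95, SNORD96A and the 3 weakest lost members) and the printed starts were chosen after their values were seen. The members and lists were chosen with earlier results of these data known. Exact two-sided permutation tests over libraries compared the groups, in scipy 1.17.1 (Python 3.11.15), and the scripts were tested on simulated peak lists. Alternatives were list length, q and fold minimums, window width, overlap rule, merged loci, left-out libraries and a replicate block.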

Additional observations from a re-analysis of the deposited data

How the results depend on the processing

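Peaks were present at fewer members after vitamin C under each alternative but 1: counting only summits inside the widened gene gave +1.46 percentage points. That rule also gave 2 lost, 8 kept and 8 gained members and a control strength of 83. Lists of equal length gave 8 lost, 1 gained and a strength of 91.8. Genes not widened gave 39 kept and 1 gained, and genes widened by 1000 bp gave 7 lost and 100 kept. Asking for 50% of the gene to be covered gave 36 kept and 1 gained. A −log10 q of at least 5 and a fold of at least 4 each gave 1 gained. Merged loci gave a strength of 91.2. With a library left out, lost members ranged from 25 to 31, kept from 64 to 77, gained from 0 to 2, the strength from 91.7 to 97.3, the difference in share from -15.1 to -14.2 points, in summit distance from -458 to -258 bp and in width from -605 to -480 bp. Mean summit distance and width were lower after vitamin C in every alternative run. Counting only summits inside the widened gene, which itself limits the distance, left 182 bp in the controls and 163 bp after vitamin C. That difference was -19.4 bp, and the libraries of the groups overlapped. The cause of these changes was not tested.

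The replicate differences of the groups correlated at -0.00 over 12020 genes. With only 2 pairs, this cannot decide whether replicate numbers pair the libraries. With the replicate block the differences were -14.6 points, -358 bp and -542 bp, as without it. That equality holds by arithmetic, since the mean of the differences by replicate number is the difference of the group means. Without read counts, a missing peak cannot be told from a peak under the calling threshold.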
